A study of Mus musculus with 30 samples.

Results

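The genes described here mark microglia and perivascular macrophages, the resident macrophages of the brain, and were followed in RNA of mouse brain microvessels: Cd163, Mrc1, Cx3cr1, P2ry12, Aif1, Csf1r, C1qa, C1qb and Tyrobp. They were chosen by name, as markers of these cells, and make up 9 of the 18193 genes covered by the arrays. They are measured by 14 of 45101 probe sets, and each gene is represented by the one with the highest mean signal over all 30 arrays. The samples were microvascular fragments, short pieces of small vessels freed from brain tissue, in mice short of pericytes, the cells that wrap capillaries. The ret mutants (pdgfbret/ret, 4 arrays, 7 to 10 months old) carry on both alleles a form of the growth factor PDGF-B without its retention motif, and the ret controls (pdgfbret/+, 4 arrays, 8 to 10 months) carry it on 1 allele. Both ret groups are on the C57/B6/J background and no brain region is named for them. The R26P mutants (Tie2Cre, R26P+/0, pdgfb-/-) lack mouse Pdgfb and carry the R26P transgene, a conditional human PDGF-B allele, with Tie2Cre. The R26P controls (R26P+/0, pdgfb+/+) carry the same transgene without a Cre named in their labels. Both are on a mixed C57/SV129 background, and cerebrum and cerebellum were arrayed separately, with 4 arrays per genotype and region. The labels of the R26P groups give both 1 year and 2 months as their age. Wild-type mice (C57/B6/J Notch3+/+, 2 months) gave 3 arrays of cerebellum and 3 of cerebrum. Tie2Cre is active in endothelium and also in blood-forming cells, so Cre may have been present in macrophages of R26P mutants as well as in their vessels. The labels call the arrays biological replicates.

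Microglia live in the brain tissue itself, while perivascular macrophages sit in the space around arterioles and venules, so both can be carried along when vessels are isolated. Both depend on Csf1r, the receptor for the growth factors Csf1 and Il34, for their survival. Cx3cr1, the receptor of the chemokine Cx3cl1, and P2ry12, a receptor for extracellular ADP, are used to recognise resting microglia. Aif1 encodes the actin-binding protein Iba1. C1qa and C1qb encode chains of C1q, which starts the classical complement cascade, and Tyrobp encodes the signalling adaptor that couples Trem2 and related receptors. Cd163, the scavenger receptor for haemoglobin bound to haptoglobin, and Mrc1, the mannose receptor, are used in brain to recognise perivascular macrophages.

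Promoters of 4 members are shown because the results below turn on them: Cd163, Mrc1 and P2ry12 passed the test in a mutant comparison, and C1qb followed the remaining members most closely. Each runs from 250 bases before to 50 bases after the start of the gene, 5′ to 3′ on the gene's strand, from RefSeq on GRCm38.p6. Capitals mark the core motif of PU.1, the myeloid transcription factor encoded by Spi1, searched as GAGGAA and, on the other strand, TTCCTC.
Cd163, chr6:124304401-124304700, plus strand: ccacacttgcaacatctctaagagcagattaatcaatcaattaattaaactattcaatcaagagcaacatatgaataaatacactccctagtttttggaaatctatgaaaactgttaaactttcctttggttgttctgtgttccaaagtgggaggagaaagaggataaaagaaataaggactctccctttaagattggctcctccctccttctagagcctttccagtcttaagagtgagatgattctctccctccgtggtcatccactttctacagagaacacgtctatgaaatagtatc
Mrc1, chr2:14229164-14229463, plus strand: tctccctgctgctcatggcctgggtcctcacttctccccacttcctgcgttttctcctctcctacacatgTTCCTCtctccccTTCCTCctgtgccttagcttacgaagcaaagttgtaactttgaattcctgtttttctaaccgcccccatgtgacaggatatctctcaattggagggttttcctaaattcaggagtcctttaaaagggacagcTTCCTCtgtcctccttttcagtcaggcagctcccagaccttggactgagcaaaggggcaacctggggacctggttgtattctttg
P2ry12, chr3:59262936-59263235, minus strand: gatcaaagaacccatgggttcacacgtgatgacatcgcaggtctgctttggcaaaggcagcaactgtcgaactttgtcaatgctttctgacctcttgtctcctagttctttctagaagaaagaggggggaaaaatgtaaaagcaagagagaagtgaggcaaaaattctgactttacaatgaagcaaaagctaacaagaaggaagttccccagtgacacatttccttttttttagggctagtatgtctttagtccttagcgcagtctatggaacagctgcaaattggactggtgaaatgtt
C1qb, chr4:136886151-136886450, minus strand: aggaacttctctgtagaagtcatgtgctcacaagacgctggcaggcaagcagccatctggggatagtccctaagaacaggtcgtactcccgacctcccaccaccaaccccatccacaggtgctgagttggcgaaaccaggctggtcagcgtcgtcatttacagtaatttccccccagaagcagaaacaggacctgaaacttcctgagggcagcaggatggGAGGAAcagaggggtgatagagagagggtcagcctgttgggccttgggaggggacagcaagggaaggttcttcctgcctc
The motif stood 3 times in the Mrc1 window, at -180, -167 and -35 from the start, once in that of C1qb at -30, and in neither of the other two shown. Of the 6 members found in the promoter table (these 4, Cx3cr1 and Aif1), 3 held the motif, Aif1 among them at -7, beside 28.3% of 32851 promoters of the same length. C1qb, C1qc and C1qa lie next to each other in that order on chromosome 4.

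All 9 members passed the filter on low signal, which asked for more than 4 on the log2 scale in at least 3 of 30 arrays and left 11242 genes to test. The 13 probe sets of the 8 members other than Cd163 were above 4 on all 30 arrays. Cd163 was above 4 on 12 arrays, which were arrays of R26P controls and wild type, and at or below 4 on all others. The brightest Csf1r probe set averaged 15.44 over all arrays, near the top of the scale. The endothelial list of 8 genes read 12.89 to 13.68 on every array, and the pericyte list of 7 measured genes was lower in mutants, at 7.48 to 8.50 in ret mutants against 11.57 to 12.07 in ret controls. In R26P mutants the pericyte list read 7.57 to 9.41 in cerebrum and 8.81 to 10.51 in cerebellum, against 12.42 to 12.73 and 13.19 to 13.32 in the R26P controls of the same regions. Pdgfb itself read 4.73 to 8.01 in R26P mutant cerebrum and 4.73 to 7.51 in R26P mutant cerebellum, against 12.51 to 12.86 and 12.05 to 12.52 in controls. It read 11.71 to 12.51 in ret mutants against 11.72 to 12.12 in ret controls. Xist went against the sex label on all 4 ret controls, so ret results with that label as a covariate are not read as an effect of sex. The pituitary gene Gh was above 8 on ret mutants 1, 2 and 4, on numbers 2 and 3 of R26P mutant and R26P control cerebrum, on R26P mutant cerebellum 3 and on wild-type cerebrum 3. The region label of R26P mutant number 3 is in doubt. Gabra6, a gene of cerebellar granule cells, read 2.21 on its cerebellum array against 2.39 on its cerebrum array, while the other R26P mutant cerebella read 3.85, 2.93 and 3.14, R26P control cerebella 3.70 to 4.96, and all other R26P cerebrum arrays 2.16. Without number 3 no member was called in R26P cerebrum and Cd163 and Mrc1 remained called in R26P cerebellum. Wild-type arrays were normalized apart from the other 24, with another lowest value (2.17 against 2.16), so they were compared only with each other. Precision is limited by the number of arrays per group.

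**Figure D1:**
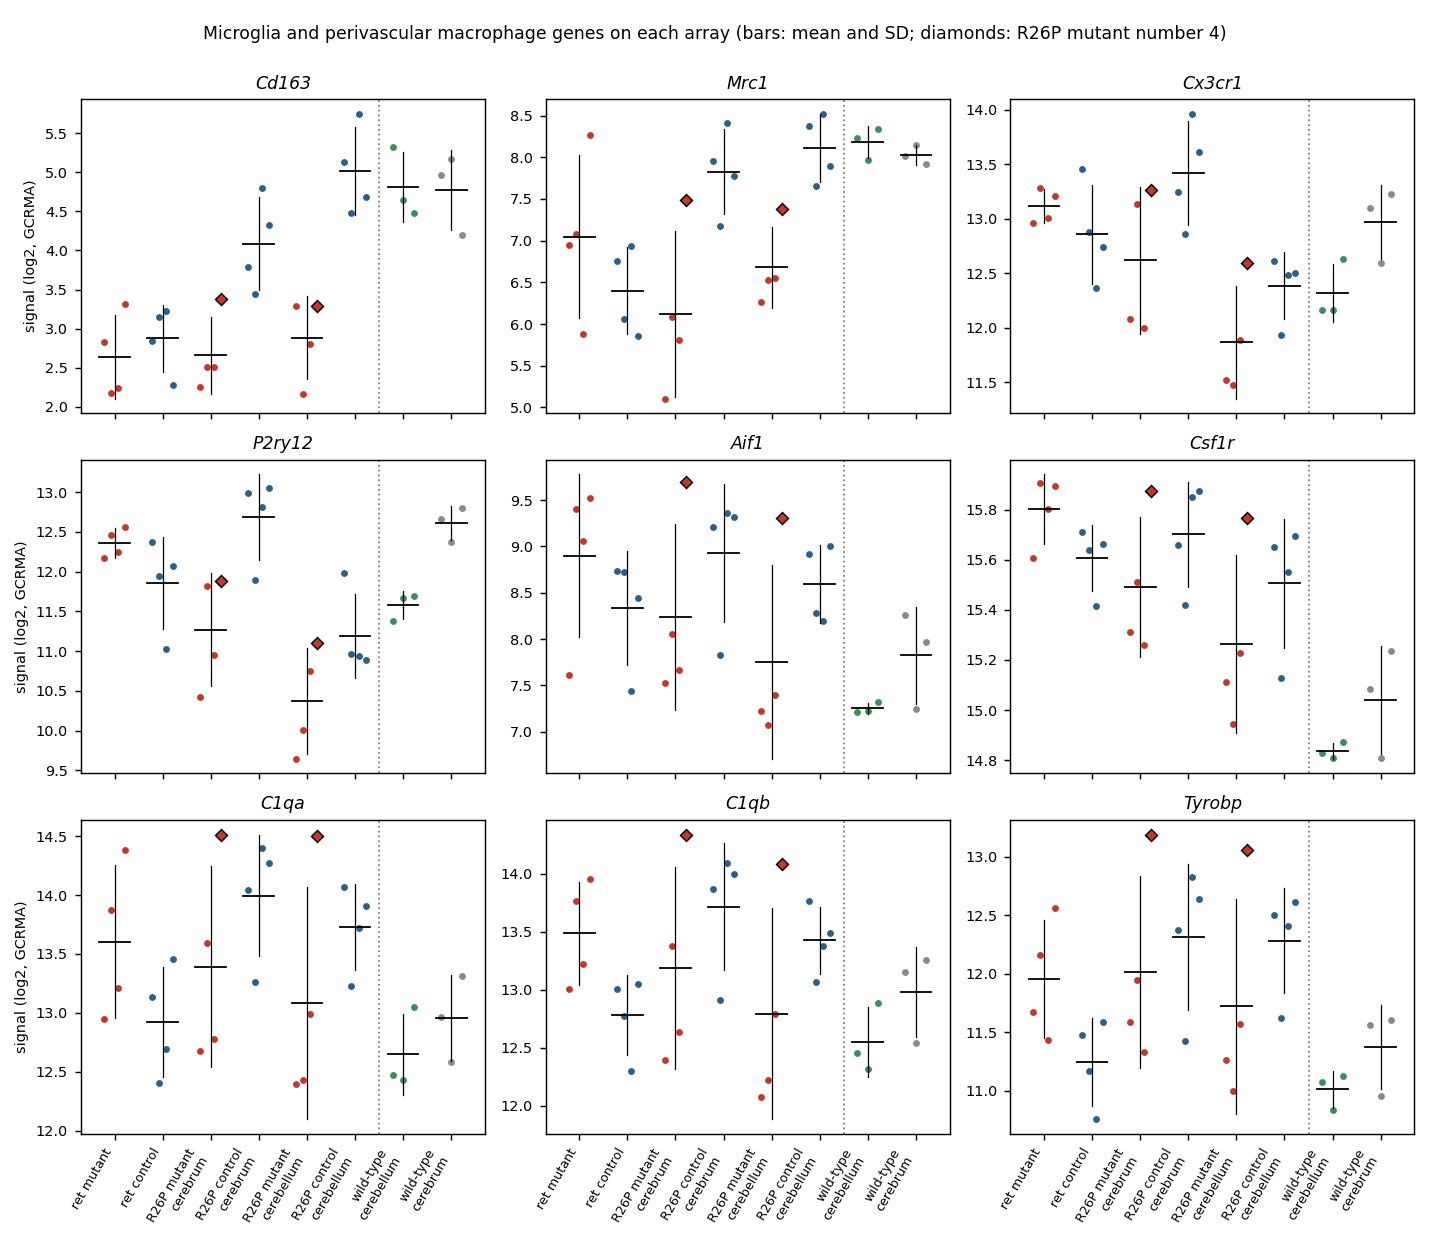
Signal (log2 GCRMA units, y axis) of the 9 genes on each array, by group on the x axis, with mutants left of controls and wild type, normalized separately, right of the dotted line. Points are arrays, horizontal bars group means and vertical bars SDs. Diamonds mark R26P mutant number 4, highest of its group for 9 of 9 genes in cerebrum and 8 of 9 in cerebellum; Cd163 in R26P mutants lies below every R26P control of the same region.

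In ret mutants no member passed the test, and 8 of 9 had a higher mean than in ret controls, by a median of 0.56 on the log2 scale beside 0.01 over all genes. The count of 0 stands beside a background of 16.6% of all genes called at an adjusted p below 0.05, and 2 members (C1qb and Tyrobp) were under an unadjusted p of 0.05, as were 32.7% of all genes. All 9 members overlapped between the groups, beside 23.5% of all genes that did not. In RNA from a mixture of cells, fewer macrophages and less of a transcript per macrophage cannot be told apart, here and in all results that follow.

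Tyrobp, the adaptor of microglial receptors, and the complement genes were measured well above the lowest value. Tyrobp read 11.67, 12.16, 11.43 and 12.56 in ret mutants 1 to 4, against 11.48, 11.16, 10.75 and 11.59 in ret controls. C1qb read 13.003, 13.76, 13.22 and 13.96 in ret mutants, against 13.005, 12.77, 12.30 and 13.05 in ret controls. For both, the upper ret mutants lay above every control and the lowest overlapped them. The difference was 0.71 ± 0.28 (SE, adjusted p = 0.128) for Tyrobp and 0.70 ± 0.25 for C1qb (adjusted p = 0.101, 95% interval 0.11 to 1.30). C1qa, the partner chain of C1qb, had 12.95, 13.87, 13.21 and 14.38 in ret mutants against 13.14, 12.40, 12.69 and 13.45 in ret controls, a difference of 0.68 ± 0.36 (adjusted p = 0.229).

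The receptors of resting microglia and Aif1 did not pass. P2ry12 read 12.17, 12.47, 12.24 and 12.56 in ret mutants, against 12.38, 11.95, 11.03 and 12.08 in ret controls. Control 3 was the low array, and the difference was 0.50 (95% interval -0.14 to 1.14, adjusted p = 0.247). Cx3cr1 differed by 0.26 (adjusted p = 0.452), the Iba1 gene Aif1 by 0.56 (adjusted p = 0.452) and Csf1r by 0.20 (adjusted p = 0.21). A second, dimmer Cx3cr1 probe set averaged 7.19 in ret mutants against 6.16 in ret controls, and the groups overlapped. The other Csf1r probe sets, which lie lower on the scale, differed by 0.51 and 0.63 (adjusted p = 0.161 and 0.0876 over all probe sets).

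The perivascular macrophage receptors did not pass either. Mrc1 read 6.95, 7.08, 5.88 and 8.27 in ret mutants, against 6.75, 6.06, 6.93 and 5.85 in ret controls. Ret mutant 3, the ret mutant with low Gh, was the lowest of its group and ret mutant 4 the highest, and the difference of 0.65 ± 0.49 (adjusted p = 0.406) became -0.52 with mutant 3 as the sole mutant array and -0.64 with the Gh level as a covariate. Gh read 14.90, 13.68 and 15.23 on ret mutants 1, 2 and 4 and 2.84 on mutant 3, while Pomc, another pituitary gene, read 11.65 to 14.24 over the 4 ret mutants against 9.30 to 10.20 in ret controls. Cd163 stood near the lowest value on all 8 ret arrays, at 2.83, 2.18, 2.24 and 3.31 in ret mutants against 2.85, 3.15, 3.23 and 2.28 in ret controls, which leaves little room for a lower value. Its difference was -0.24 ± 0.31 (adjusted p = 0.636).

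In R26P mutant cerebrum 3 of 9 members were lower than in R26P controls: Cd163, Mrc1 and P2ry12. The other 6 did not pass, and all 9 had a lower mean, by a median of -0.69 beside 0.01 over all genes. Among all genes 10.3% were called lower in this comparison. Those 3 calls are close to the threshold, and the count was 0 without control 3 or 4 or mutant 1, 2 or 3, and 1 (Cd163) without control 1. Mrc1 alone was also lost without control 2 (adjusted p = 0.0589).

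Cd163 read 2.25, 2.51, 2.51 and 3.38 in R26P mutant cerebrum, against 3.79, 3.44, 4.79 and 4.32 in R26P control cerebrum. Every mutant array lay below every control, mutant 4 and control 2 by the narrowest margin. The difference was -1.43 ± 0.34 (adjusted p = 0.0253), on a scale that ends at 2.16, where the mutant arrays have little room, so its size is not read as exact. Mrc1 read 5.11, 6.09, 5.81 and 7.48 in mutants against 7.95, 7.17, 8.41 and 7.77 in controls. Only mutant 4 reached into the range of the controls, and the difference was -1.71 ± 0.49 (adjusted p = 0.0481), or 3.26-fold. P2ry12, the microglial ADP receptor, read 10.42, 11.82, 10.96 and 11.89 in mutants against 12.99, 11.89, 12.82 and 13.05 in controls. The groups did not overlap, although mutant 4 lay just below control 2, and the difference was -1.42 ± 0.39 (adjusted p = 0.0414), or 2.67-fold. Cd163 and P2ry12 are 2 of 9 members without overlap in this direction, beside 13% of all genes. Cd163 met the filter only through R26P controls and wild type, and every mutant array lay under its level of 4, so Cd163 is weak support in this count. With no filter the calls of Cd163 (limma, adjusted p = 0.0764), P2ry12 (0.115) and Mrc1 (0.128) were lost.

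The 6 members that did not pass in cerebrum overlapped between mutants and controls. Cx3cr1 read 12.08, 13.13, 11.996 and 13.26 in mutants against 13.25, 12.86, 13.96 and 13.61 in controls, with mutants 1 and 3 below all controls and mutants 2 and 4 among them (-0.80 ± 0.36, adjusted p = 0.164). C1qb read 12.40, 13.37, 12.64 and 14.34 in mutants against 13.87, 12.91, 14.09 and 13.99 in controls, and here mutant 4 was above every control (-0.53 ± 0.45, adjusted p = 0.443). C1qa (-0.60), Aif1 (-0.69), Tyrobp (-0.30) and Csf1r (-0.21) had adjusted p values of 0.363 to 0.67. The dimmer Cx3cr1 probe set averaged 6.64 in mutants against 7.89 in controls. The dimmer Csf1r probe sets averaged 13.25 and 11.85 in mutants against 13.85 and 12.75 in controls. On each of these probe sets the groups overlapped.

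In R26P mutant cerebellum the perivascular macrophage receptors Cd163 and Mrc1 were lower than in R26P controls, and the 7 other members did not pass. All 9 again had a lower mean, by a median of -0.65 beside 0.00 over all genes, and 8.71% of all genes were called lower. Cd163 read 3.29, 2.16, 2.80 and 3.29 in mutants against 5.13, 4.47, 5.75 and 4.69 in controls. The gap between the highest mutant and the lowest control was over 1 log2 unit, and the difference was -2.13 ± 0.34 (adjusted p = 0.00626). Mutant 2 was at the lowest value of the arrays, so the size of this difference is not read as exact. Mrc1 read 6.26, 6.53, 6.55 and 7.38 in mutants against 8.38, 7.66, 8.52 and 7.89 in controls. All mutants were lower than all controls, by -1.43 ± 0.28 (adjusted p = 0.0144), or 2.69-fold. Both genes kept their call without any one array, and these 2 of 9 members stood without overlap beside 11.5% of all genes. Here too Cd163 lay under the filter level of 4 on every mutant array.

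P2ry12, which passed in cerebrum, read 9.64, 10.01, 10.75 and 11.10 in R26P mutant cerebellum against 11.98, 10.97, 10.93 and 10.89 in R26P control cerebellum. Control 1 stood above all others and mutant 4 lay among the controls, and the difference was -0.82 (95% interval -1.69 to 0.06, adjusted p = 0.183). Aif1 (-0.85), C1qa (-0.65), C1qb (-0.63), Tyrobp (-0.56), Cx3cr1 (-0.52) and Csf1r (-0.24) had adjusted p values of 0.23 to 0.441. The dimmer Cx3cr1 probe set averaged 6.05 in mutants against 6.79 in controls. The dimmer Csf1r probe sets averaged 12.77 and 11.33 in mutants against 13.27 and 11.90 in controls. On each of these probe sets the groups overlapped. For no member was a difference in R26P effect between cerebellum and cerebrum detected by limma, with an adjusted p of 1 for each and none at an unadjusted p below 0.05, beside 0.116% of all genes called. This fit did not pair the regions of each animal, which the array numbers support, so its intervals include variation between animals. With the animal as a block no member passed either. The intervals are wide: the difference of effects, cerebellum minus cerebrum, was 0.60 (-0.62 to 1.83) for P2ry12, 0.28 (-1.005 to 1.56) for Mrc1 and -0.70 (-1.79 to 0.39) for Cd163.

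**Figure D2:**
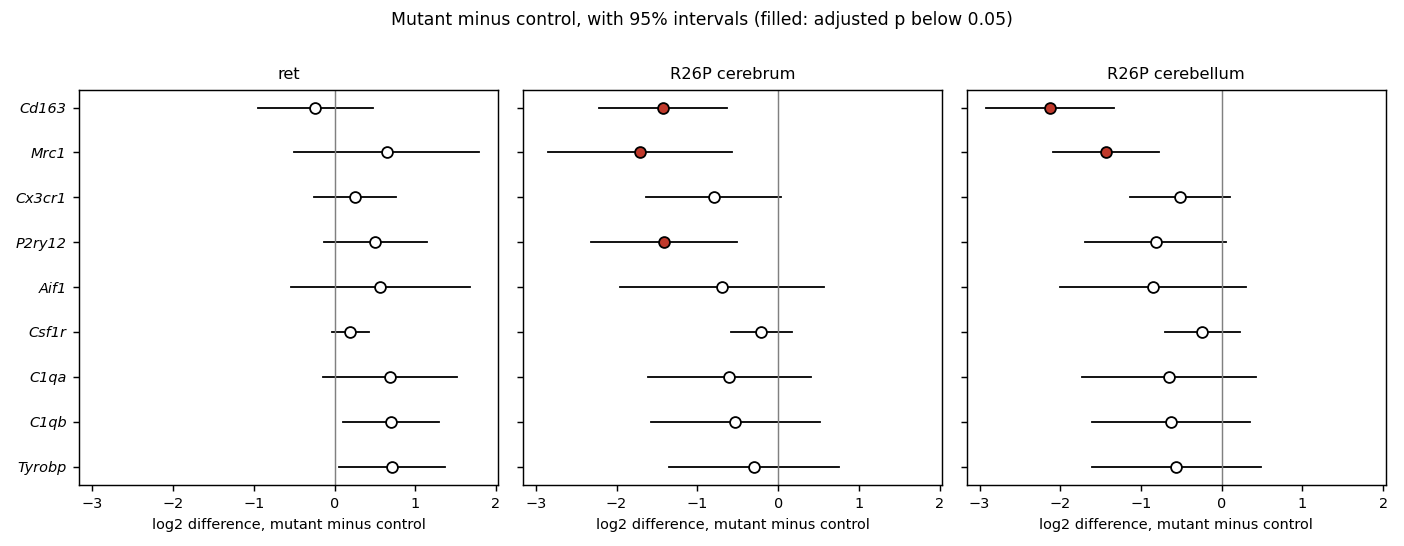
Difference of mutant minus control (log2, x axis) for each gene (y axis) in ret mice, R26P cerebrum and R26P cerebellum; points are estimates, lines 95% intervals and filled points an adjusted p below 0.05. In R26P mice all 9 estimates lie left of 0 in both regions, whereas 8 of 9 lie right of 0 in ret mice, with none filled.

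Most markers of perivascular fibroblasts and astrocytes were also lower in R26P mutants, as Cd163 and Mrc1 were. Other lists did not share this: of 3 measured oligodendrocyte genes 0 were lower in either region. Of 5 neuron genes 2 were lower in cerebrum and 1 in cerebellum, and of 8 endothelial genes 1 and 0. After removal of the 6 group means, fibroblast genes had a median correlation of -0.16 with the mean of the 8 members other than Cd163. For astrocyte genes the median was -0.34, and for the 24 other microglia genes 0.92. Whether fibroblast or astrocyte genes follow Cd163 or Mrc1 alone from array to array was not tested. Of 6 measured genes of perivascular fibroblasts, which share the perivascular space, 5 were lower in R26P mutant cerebrum and 4 in R26P mutant cerebellum, and the mean of the list read 7.45 to 8.61 in mutant against 8.93 to 9.99 in control cerebrum, and 8.40 to 9.13 in mutant against 10.09 to 11.05 in control cerebellum. Of 7 measured astrocyte genes 6 and 5 were lower in these regions, with list means of 8.01 to 8.49 in mutant against 10.14 to 10.47 in control cerebrum and 7.62 to 9.03 against 9.70 to 10.11 in mutant and control cerebellum. Among all genes 10.3% were called lower in cerebrum and 8.71% in cerebellum. The part of fibroblasts and astrocytes in the macrophage result was not tested. In ret mutants 5 of 7 astrocyte genes and 1 of 6 fibroblast genes were lower, beside 16.6% of all genes called in either direction.

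R26P mutant number 4 stood apart from the other R26P mutants in both regions, an array pair singled out after its values were seen. It was the highest of its group for 9 of 9 members in cerebrum and for 8 of 9 in cerebellum. C1qa, for instance, read 12.40, 12.43 and 12.99 in mutant cerebellum 1 to 3 and 14.50 in mutant cerebellum 4, beside 13.23 to 14.07 in the controls. The same arrays had the highest mean of the list of 13 genes raised in activated microglia (9.21 in cerebrum and 10.06 in cerebellum, with the other R26P mutants at 6.67 to 7.46 and 7.49 to 7.85). They were also highest for the blood leukocyte list (7.33 and 7.03, the other mutants at 5.78 to 5.99 and 5.23 to 5.86) and lowest for the pericyte list (7.57 and 8.81). The leukocyte list rests on the 5 of its 18 genes that could be tested, since 10 others, neutrophil and lymphocyte genes such as S100a8 and Cd3e among them, were too dim.

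**Figure D3:**
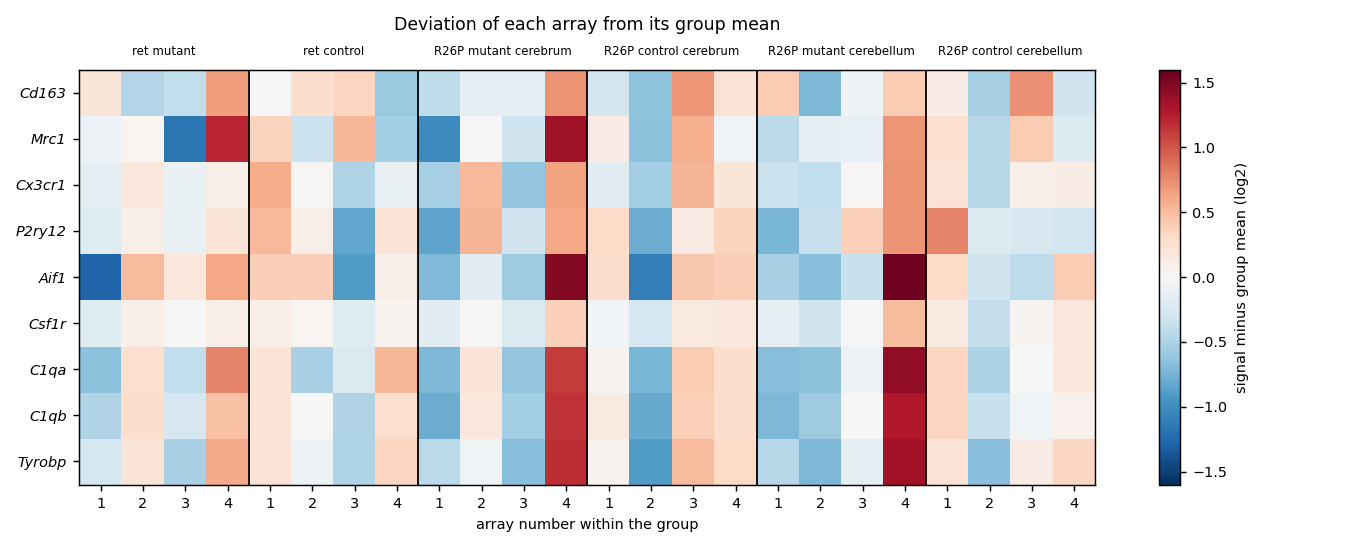
Signal of each gene minus the mean of its group (colour, log2) for the 24 ret and R26P arrays, with array numbers on the x axis. Columns 4 of both R26P mutant groups are red in every row, and columns 2 of both R26P control groups are blue in every row.

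Without number 4 more members passed in cerebellum. It was chosen for its high values of these same members, so leaving it out moves the mutants down in advance. The counts below are therefore no support for a fall. In cerebellum 6 of 9 were then lower in R26P mutants (Cd163, Mrc1, Cx3cr1, Aif1, C1qa and C1qb) beside 7.51% of all genes, with Aif1 at -1.37 (adjusted p = 0.0117) and C1qb at -1.06 (adjusted p = 0.0256). All remaining mutants lay below all controls for 8 of 9 members there, Csf1r being the exception, beside 14.1% of all genes. In cerebrum the members called lower stayed Cd163, Mrc1 and P2ry12, beside 8.64% of all genes, and Mrc1 then had a difference of -2.16 (adjusted p = 0.00816). The remaining mutants lay below all controls for these 3 members, beside 15% of all genes. Among the controls, R26P control number 2 was the lowest for 9 of 9 members in cerebrum and 7 of 9 in cerebellum.

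The ret and R26P estimates had opposite signs for 8 of 9 members, and the difference between the effects was tested. Against the R26P effect in cerebellum, 3.31% of all genes were called higher in ret, and of the members Cd163 was (1.89 ± 0.48, adjusted p = 0.0346). Its 8 ret arrays read 2.18 to 3.31, under the filter and near the lowest value, so a ret fall as large as the R26P one could not have appeared, and nothing is read from this call about the ret effect on Cd163. With Cd163 counted, all 9 members had a positive difference, with a median of 1.33 beside 0.02 over all genes, and 7 were under an unadjusted p of 0.05, as were 24% of all genes. Mrc1 missed the threshold at 2.08 ± 0.59 (adjusted p = 0.0521), with an interval of 0.81 to 3.35. The call of Cd163 was lost without ret control 1 or 4, ret mutant 4, R26P control 1, or R26P mutant 2 or 3 (adjusted p = 0.0599 to 0.0678).

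Against the R26P effect in cerebrum no member passed, beside 3.34% of all genes called, and 6 members were under an unadjusted p of 0.05, as were 21.8% of all genes. All 9 differences were again positive, with a median of 1.23 beside 0.01 over all genes. P2ry12 came closest, at 1.92 ± 0.50 (adjusted p = 0.052, interval 0.84 to 3.00), followed by Mrc1 at 2.35 ± 0.73 (adjusted p = 0.088). Both passed without R26P mutant 4 (adjusted p = 0.0332 and 0.0306), where 2.95% of all genes were called higher, and P2ry12 also without R26P control 2 or R26P mutant 2. Against cerebellum, 5 members passed without R26P mutant 4 (Cd163, Mrc1, C1qa, C1qb and Tyrobp), beside 4.72% of all genes called higher. All passes without R26P mutant 4 follow in part from how that array was chosen and are no support for a difference. The models also differ in strain, age and transgene, and the ret arrays have no named region, so genotype cannot be told apart from these. Both differences use the same ret arrays.

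**Figure D4:**
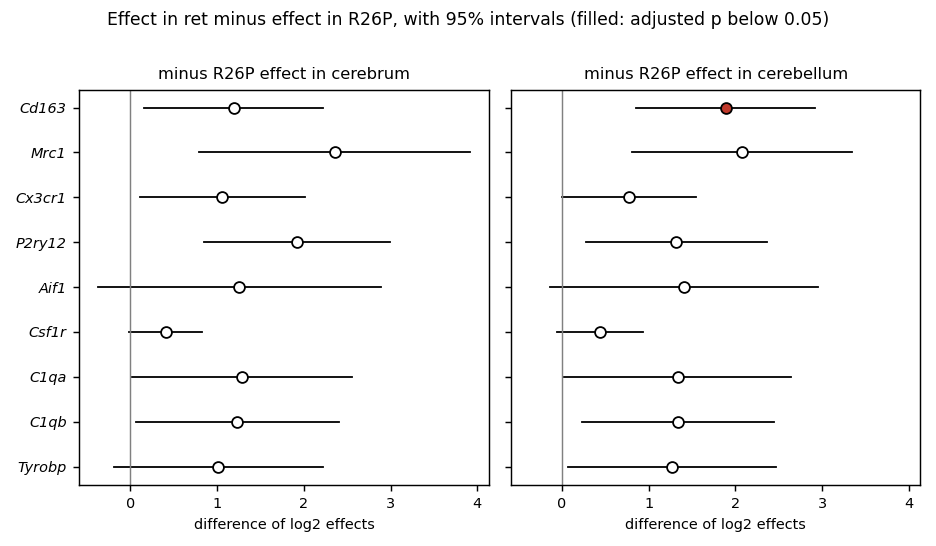
Ret effect minus R26P effect (difference of log2 effects, x axis) for each gene (y axis), against R26P cerebrum and R26P cerebellum; lines are 95% intervals and the filled point an adjusted p below 0.05. All 18 estimates lie right of 0, and the filled point is Cd163 against cerebellum, a gene whose 8 ret arrays lie near the lowest value.

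Between regions of wild-type mice, P2ry12 was lower in cerebellum and no other member passed. It read 11.38, 11.67 and 11.70 in cerebellum against 12.67, 12.37 and 12.80 in cerebrum. The groups did not overlap, and the difference was -1.03 ± 0.14 (adjusted p = 0.0309), or 2.04-fold, 1 of 9 members beside 0.338% of all genes called lower, and 11.8% of all genes lower without overlap. Cx3cr1 differed by -0.65 ± 0.21 (adjusted p = 0.22), and the remaining microglial genes by -0.57 to -0.20, while Mrc1 (0.15, adjusted p = 0.588) and Cd163 (0.04, adjusted p = 0.971) had differences above 0. Of 24 other microglia genes tested, 3 were lower in cerebellum: Siglech, a lectin receptor (-1.24), P2ry13, a second ADP receptor (-0.94), and the lysophospholipid receptor Gpr34 (-0.89). All 24 had a lower mean there, with a median of -0.56. The P2ry12 call was lost without any array except cerebrum 2 (adjusted p = 0.0718 to 0.137) and with the mouse as a block (adjusted p = 0.0657), which pairs the regions of 1 animal.

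In R26P controls P2ry12 had a difference of the same sign, with 11.98, 10.97, 10.93 and 10.89 in cerebellum against 12.99, 11.89, 12.82 and 13.05 in cerebrum. Cerebellum 1 was just above cerebrum 2 and the difference was -1.49 ± 0.33 (adjusted p = 0.0952). Cx3cr1 did not overlap, with 12.62, 11.93, 12.49 and 12.51 in cerebellum against 13.25, 12.86, 13.96 and 13.61 in cerebrum (-1.03 ± 0.25, adjusted p = 0.123), 1 of 9 members beside 2.77% of all genes. No member passed, with 3 under an unadjusted p of 0.05 and 1.17% of all genes called. With the animal as a block, which the array numbers support here, 3 members passed: P2ry12 (adjusted p = 0.0374), Cx3cr1 (adjusted p = 0.0285) and Cd163, which was higher in cerebellum by 0.92 (adjusted p = 0.0481), and the count over all genes was 475 in place of 132.

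Over the 6 groups normalized together, the highest mean belonged to R26P control cerebrum for 6 members, to R26P control cerebellum for Cd163 and Mrc1, and to ret mutants for Csf1r. The lowest belonged to R26P mutant cerebellum for 4 members, ret controls for 3 (C1qa, C1qb and Tyrobp), and ret mutants (Cd163) and R26P mutant cerebrum (Mrc1) for 1 each. Most neighbours in this order did not differ beyond their spread: 6 of 45 gaps exceeded the pooled SD of the adjoining groups. For Cd163, R26P control cerebellum averaged 5.01 ± 0.56 (SD, n = 4), R26P control cerebrum 4.09 ± 0.59 and the next group, R26P mutant cerebellum, 2.88 ± 0.53, and both gaps were larger than the spread. Cd163 met the filter only through R26P controls and wild type, and lay under 4 on every mutant array. Its gaps are therefore no support for a difference between groups.

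The microglial members moved together from array to array. After removal of the 6 group means, C1qa and C1qb correlated at 0.96 over 24 arrays, C1qb and Tyrobp at 0.95, and Cd163 and Mrc1 at 0.72, whereas Cd163 and P2ry12 had the lowest correlation of all pairs, 0.26. Against the mean of the remaining members, C1qb had the highest correlation (0.99), Mrc1 had 0.67 and Cd163 0.53. Arrays of one R26P number come from both regions and are not independent points, and all arrays share their normalization. The genes most like the mean of the 8 members other than Cd163, out of 11233 others, were P2ry6, a UDP receptor (0.99), Pld4, an exonuclease of the phospholipase D family (0.98), the microglial membrane protein Tmem119 (0.98), the third C1q chain C1qc (0.98), the lysosomal protein Cd68 (0.98), the TGF-beta receptor Tgfbr1 (0.97), the lipid enzyme Lpcat2 (0.97) and the adaptor Lpxn (0.97). The median gene had -0.05 and 229 were above 0.8. None of those 8 genes passed in any of the 3 mutant comparisons.

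The ligands of Csf1r and Cx3cr1 changed in every mutant group. Neither receptor, by its brightest probe set, passed in any of the 3 mutant comparisons with all arrays. Csf1, a growth factor for macrophages that binds Csf1r, was higher. It read 11.97, 11.64, 12.49 and 11.51 in ret mutants against 11.01, 10.36, 10.04 and 10.94 in ret controls (1.32 ± 0.29, adjusted p = 0.0199). In cerebrum it read 10.63, 10.94, 10.84 and 11.17 in R26P mutants against 9.51, 9.88, 10.14 and 9.48 in R26P controls (1.14 ± 0.18, adjusted p = 0.00455), and in cerebellum 10.46, 10.76, 10.78 and 11.19 against 9.44, 9.84, 10.06 and 9.84 (1.00 ± 0.18, adjusted p = 0.0103). All mutants were above all controls in each comparison, and the 4 probe sets of Csf1 had positive differences in all 3. The ret call was lost without ret control 2 (adjusted p = 0.0617), with no filter (0.0606), with the sex label as a covariate (0.0832), with ret mutant 3 as the sole mutant array (0.0825) and with the replicate block (0.0818).

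Il34, the other ligand of Csf1r, made in brain mainly by neurons, was lower. It read 2.64, 2.28, 2.64 and 2.64 in ret mutants against 4.10, 4.12, 4.505 and 4.07 in ret controls (-1.65 ± 0.13, adjusted p = 3.7e-04). In cerebrum it read 2.64, 3.59, 2.64 and 2.65 in R26P mutants against 6.09, 6.27, 5.47 and 5.05 in R26P controls (-2.84 ± 0.33, adjusted p = 0.00117), and in cerebellum 4.04, 4.19, 2.66 and 2.97 against 6.67, 6.95, 6.77 and 6.57 (-3.28 ± 0.35, adjusted p = 9.7e-04). No group overlapped its control, and most mutant values lay near the lowest of the arrays, so the direction was read more firmly than the size. Neuron markers moved with Il34 in part: the list of 5 measured genes read 3.74 to 4.51 in R26P mutant against 4.85 to 5.29 in R26P control cerebellum, 3.38 to 5.04 against 4.52 to 5.34 in cerebrum, and 3.00 to 5.48 in ret mutants against 3.09 to 3.35 in ret controls. Their part in the Il34 result was not tested.

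Cx3cl1, the membrane-bound chemokine that binds Cx3cr1, was higher in every mutant group. It read 11.997, 11.62, 11.64 and 11.84 in ret mutants against 10.09, 9.77, 10.02 and 10.84 in ret controls (1.59 ± 0.23, adjusted p = 0.00366). In cerebrum it read 11.54, 12.04, 11.79 and 11.71 in R26P mutants against 10.14, 10.22, 9.90 and 10.03 in R26P controls (1.69 ± 0.12, adjusted p = 1.9e-04), and in cerebellum 11.56, 11.74, 11.78 and 11.91 against 10.15, 9.99, 9.85 and 9.72 (1.82 ± 0.12, adjusted p = 1.2e-04). The groups did not overlap. A second, dimmer probe set of Cx3cl1 had differences of 0.28 to 0.50 that did not pass over all probe sets. The ret call was lost with the Gh level as a covariate (adjusted p = 0.0797) and with ret mutant 3 as the sole mutant array (adjusted p = 0.136).

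**Figure D5:**
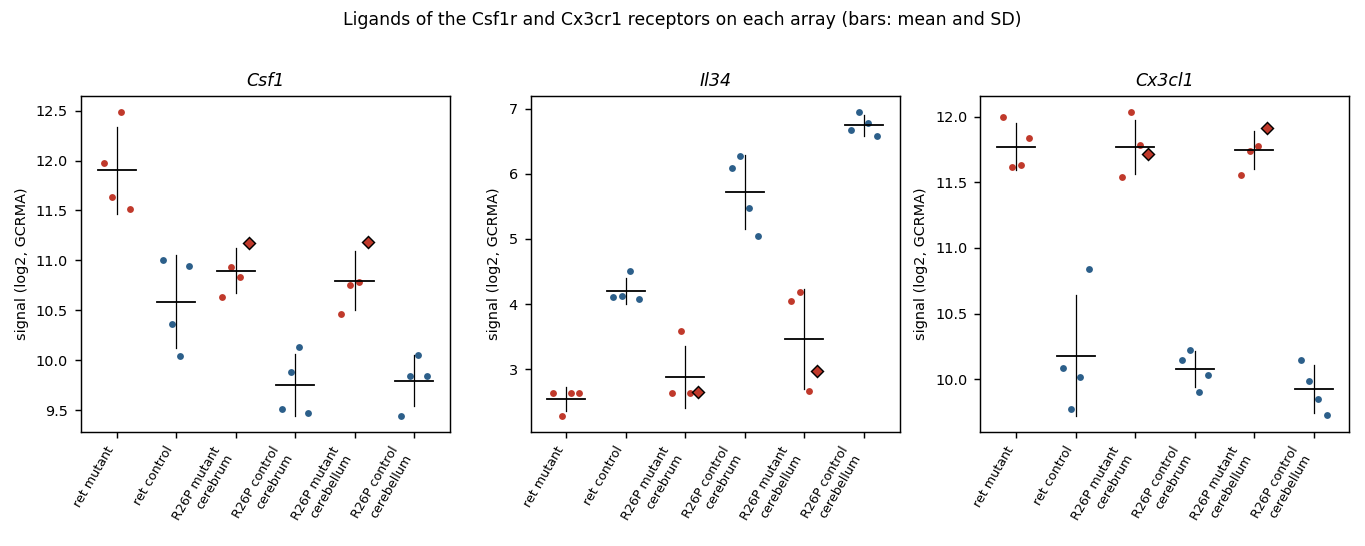
Signal (log2 GCRMA units, y axis) of Csf1, Il34 and Cx3cl1 on each of the 24 ret and R26P arrays by group (x axis), mutants left of controls; points are arrays (diamonds R26P mutant number 4), horizontal bars means and vertical bars SDs. Mutants lie above controls for Csf1 and Cx3cl1 and below them for Il34 in each comparison.

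Of the 13 measured ligands, signalling partners and complement genes, 3 were higher and 2 lower in ret mutants, and 2 were higher and 3 lower in each R26P region. Beside the ligands these were complement genes. Among all genes 16.6% were called in either direction in ret mutants. In R26P mutants 10.3% of all genes were called lower in cerebrum and 8.71% in cerebellum. The share called higher is not given for R26P mutants, so the count of 2 higher is not read as a result. Serping1, the C1 inhibitor, was lower in ret mutants (-1.71, adjusted p = 0.0262), R26P mutant cerebrum (-1.45, adjusted p = 0.00697) and R26P mutant cerebellum (-1.30, adjusted p = 5.4e-04). The protease gene C1s1, whose product works with C1q, was lower in R26P mutant cerebrum (-1.30, adjusted p = 0.0205) and cerebellum (-1.17, adjusted p = 0.0162), and C1ra, its activating protease, was higher in ret mutants (0.86, adjusted p = 0.0332). The ret calls of Serping1 and C1ra were each lost without any of 6 single arrays, and that of C1s1 in cerebrum without control 2 or 4 or mutant 2.

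Genes of related cells showed where the members stood within their family. Of 24 other microglia genes, 2 were higher in ret mutants, beside 16.6% of all genes called in either direction: the leukocyte phosphatase Ptprc (1.33, adjusted p = 0.00929) and the receptor chain Fcer1g (0.95, adjusted p = 0.0409, lost without 7 of the single arrays), and all 24 had a higher mean, with a median of 0.78. In R26P mutants none of the 24 passed, and 1 in cerebrum and 2 in cerebellum had a higher mean, with medians of -0.51 and -0.55. Of 8 other perivascular macrophage genes measured, Ms4a6c (1.89, adjusted p = 0.00857) and the scavenger receptor Stab1 (0.74, adjusted p = 0.00137) were higher in ret mutants, and Cbr2, a carbonyl reductase, was lower in R26P mutant cerebrum (-1.56, adjusted p = 0.00159), where mutants read 5.92 to 6.60 and controls 7.58 to 8.22. That call was lost in one fit of 24 arrays (adjusted p = 0.0554). None passed in R26P mutant cerebellum, where Cbr2 was at -0.85 (adjusted p = 0.258). These 8 genes did not share a direction in R26P mutants: 2 had a higher mean in cerebrum and 2 in cerebellum, with medians of -0.30 and -0.34. Ms4a6c read 8.13 to 11.81 in R26P mutant cerebrum against 6.99 to 8.46 in R26P control cerebrum (1.76, adjusted p = 0.158).

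Some genes raised in activated microglia and some of blood leukocytes were higher in ret mutants. Of 13 activation genes 4 were higher and 1 lower, beside 16.6% of all genes called in either direction. The lectin receptor Clec7a read 8.25, 8.49, 8.55 and 10.26 in ret mutants against 5.36, 4.37, 5.47 and 6.05 in ret controls (3.58, adjusted p = 0.00383). The galectin Lgals3 (2.77, adjusted p = 0.0111) and the cytokine Il1b (2.82, adjusted p = 0.0181) followed, with Itgax (1.11, adjusted p = 0.046) and, lower, the tetraspanin Cd9 (-0.66, adjusted p = 0.0384). The calls of Itgax and Cd9 were lost without 6 and 7 of the single arrays, and that of Il1b without ret control 2 or 3 and with ret mutant 3 as the sole mutant array (adjusted p = 0.0685). With no filter the ret calls of Il1b, Itgax, Cd9, Fcer1g, Csf1, C1ra and Serping1 were lost (adjusted p = 0.0589 to 0.117). The sex label as a covariate ended the same 7 calls and that of Lgals3 (0.0507 to 0.167), and the replicate block those 7 and that of Ptprc (0.0549 to 0.111). Xist contradicted the sex label on all 4 ret controls, so the losses under that label are not read as an effect of sex. In one fit of 24 arrays Ptprc, Fcer1g, Ms4a6c and Itgax did not pass (0.065 to 0.226). With the Gh level as a covariate the ret calls of Clec7a (adjusted p = 0.0854), Lgals3 (0.136), Ptprc (0.122), Ms4a6c (0.0772) and the lysozyme gene Lyz2 (0.0542) were lost. With ret mutant 3 as the sole mutant array the adjusted p was 0.0642 for Clec7a, 0.14 for Lgals3, 0.114 for Ptprc, 0.0882 for Ms4a6c and 0.0764 for Lyz2. In R26P mutants Axl, a receptor that aids the clearing of dead cells, was lower in cerebrum (-2.82, adjusted p = 0.0258, lost without any control or mutant 2, with no filter and with the replicate block) and cerebellum (-1.88, adjusted p = 0.00115), as was Cd9 in cerebrum (-0.76, adjusted p = 0.0361, lost without 6 single arrays). None of the 13 was called higher in R26P mutants. By mean, 9 of the 13 were higher in cerebrum and 3 in cerebellum, with medians of 0.09 and -0.63.

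Of the 5 measured blood leukocyte genes, Plac8, a gene of monocytes and granulocytes, read 8.64, 7.96, 9.68 and 10.15 in ret mutants against 4.495, 2.77, 2.77 and 2.78 in ret controls (5.90, adjusted p = 9.0e-04). Controls 2 to 4 sat at or just above the lowest value of its probe set, so that size is not read as exact. The lysozyme gene Lyz2 read 11.32, 11.70, 11.76 and 12.45 against 9.92, 8.52, 9.38 and 8.86 (2.64, adjusted p = 0.00271). The leukocyte list mean was 5.79 to 6.64 in ret mutants against 4.05 to 4.65 in ret controls. Plac8 and Lyz2 were 2 of 5 called, beside 16.6% of all genes in either direction, and the list mean mostly follows them. Ccr2, Cd79b and Ms4a1 averaged 3.57, 3.36 and 2.67 in ret mutants against 3.54, 2.84 and 2.46 in ret controls. These means lie under the filter level of 4. In cerebrum the list read 5.78 to 7.33 in R26P mutants against 4.38 to 5.27 in R26P controls. Plac8 was the 1 gene called there (5.16, adjusted p = 0.00397, with control 1 at its lowest value), and Ccr2, Cd79b and Ms4a1 again averaged under 4. In cerebellum the list overlapped, at 5.23 to 7.03 in R26P mutants against 4.86 to 6.60 in R26P controls, and no gene passed. Blood leukocytes also express Tyrobp, Fcer1g and Ptprc, and their part in the ret results was not tested.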

How the data were processed

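The authors deposited log2 signals made from Affymetrix arrays with GCRMA 2.6.0 under R 2.4.1, per the submitters' processing notes. The deposited log2 values were used unchanged. Normalization batches (24 ret and R26P arrays, 6 wild-type arrays) were told apart by their lowest value. Of 45101 probe sets, 34958 are paired with 1 gene by the platform annotation, 932 with several and 9211 with none; 64 control probe sets were left out, and 0 symbols needed updating.

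Each gene is represented by its probe set of highest mean. Genes above 4 in at least 3 of 30 arrays (11242 of 18193) were tested two-sided with limma 3.58.1 in R 4.3.3 (lmFit, eBayes, group means only), on the arrays of the groups compared, with Benjamini-Hochberg adjustment over all genes tested and a threshold of 0.05. Differences of effects were contrasts in one fit. The scripts were tested on simulated data. Array numbers were checked after removal of group means: same-numbered arrays of both regions correlated at 0.344 to 0.840, so the numbers pair regions, while those of mutants and controls did not all exceed 0.1 (-0.199 to 0.025 in ret mice, -0.140 to 0.337 in R26P cerebrum and -0.162 to 0.273 in R26P cerebellum). All 9 members are named in every comparison; of other lists, up to 4 members that passed, largest first, or the 2 brightest where none did, a selection of which is given; Cd9, C1ra and, in R26P mice, Csf1 fall outside this rule and were named after their values were seen. The members and gene lists were chosen with earlier results of these data known. An erythrocyte list (0 genes measurable) and a pituitary list (2 of 6 higher in ret mutants, Gh and Pomc; 0 called in R26P) were also read, and of 8 endothelial genes 1 was lower in ret mutants, 1 was higher and 1 lower in R26P mutant cerebrum, and 1 was higher in R26P mutant cerebellum. Alternatives were no filter, a mean above 6, averaged probe sets per gene, tests over every probe set, an intensity trend with robust prior, renewed quantile normalization, the replicate number as a block, one fit of 24 arrays, sex label or Gh as covariate, ret mutant 3 as the sole mutant, no R26P mutant 3 and leaving out each array.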

Additional observations from a re-analysis of the deposited data

Results flagged for a closer look

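Of 54 sets of 4 arrays (9 members in 6 groups) 3 held 1 array far from the others, a rate that chance gives in about 1 of 20. P2ry12 read 11.98 on R26P control cerebellum 1, while the other controls read 10.89 to 10.97. Aif1 read 9.31 on R26P mutant cerebellum 4, with the other mutants at 7.08 to 7.39. Aif1 read 7.82 on R26P control cerebrum 2, with the other controls at 9.21 to 9.36.

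A few genes had a ret effect that differed from an R26P effect by the test of the difference itself. In cerebellum the ret effect was higher by 4.14 for Clec7a (adjusted p = 0.0269), by 1.62 for Il34 (adjusted p = 0.0263) and by 2.32 for Lyz2 (adjusted p = 0.0363), and these 3 calls were lost with no filter (adjusted p = 0.0607 to 0.0831). Il34 was lower in both mutants, and its ret controls started closer to the lowest value. In cerebrum the ret effect was higher by 0.91 for Stab1 (adjusted p = 0.0254, and 0.115 with the replicate block). For Cd163 the test gave 1.89 in cerebellum (adjusted p = 0.0346), but its ret arrays all lay near the lowest value, so the ret effect had no room to match the R26P one and nothing is read from this value.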

How the results depend on the processing

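The counts of changed genes depended on the settings more than the directions did. Over all settings other than leaving out each single array, member differences kept direction and side of the threshold in 580 cases. They gained the threshold in 11, lost it in 16 and turned sign in 6. Depth is not defined for arrays; a few arrays per group and signal near the lowest value (Cd163, Il34) limit precision, and where no reason is given the cause was not tested.

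In ret mice 1870 genes changed, against 1229 with no filter, 2924 over all probe sets (more features tested), 989 with the replicate block, 1051 with the sex label and 821 with the Gh level as covariate, 919 with mutant 3 as the sole mutant array (fewer samples) and 1153 to 1931 without single arrays. Members stayed at 0 to 0. In R26P cerebrum 2097 genes changed, against 1390 with no filter, 1278 with the replicate block and 1388 to 1944 without single arrays, and of 3 members 0 passed with no filter, 1 over all probe sets, 1 with the block, 1 with the sex label and 0 to 3 without single arrays. In R26P cerebellum 1759 genes changed, against 1081 with no filter and 1117 to 1573 without single arrays, and of 2 members 1 passed with a mean above 6, where Cd163 was not tested, 1 with the replicate block (Mrc1 at adjusted p = 0.0504) and 2 to 6 without single arrays.

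For the ret minus R26P difference in cerebrum 376 genes changed, against 177 with no filter, 68 with the replicate block, 596 in one fit of 24 arrays and 127 to 611 without single arrays. Members numbered 0, against 1 with a mean above 6, 1 with the trend, 1 after renewed quantile normalization, 2 in one fit and 0 to 2 without single arrays. In cerebellum 712 changed, against 419 with no filter, 314 with the replicate block and 412 to 896 without single arrays. Members numbered 1, against 0 with no filter, 2 with the trend, 0 after renewed quantile normalization, 0 with the block and 0 to 5 without single arrays. For the R26P region difference 13 genes changed, against 6 with no filter, 0 with a mean above 6, 4 with averaged probe sets, 29 with the replicate block, 6 without both arrays of mutant 3 and 6 to 14 without single arrays, with 0 to 0 members.

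In wild type 238 genes changed, against 58 with no filter, 135 with the replicate block and 12 to 159 without single arrays. Its 1 member was at 0 with no filter, 0 over all probe sets, 0 with the block and 0 to 1 without single arrays. In R26P controls 132 changed between regions, against 47 with no filter, 68 with averaged probe sets, 475 with the replicate block and 48 to 193 without single arrays, and members numbered 0, against 3 with the block, 1 in one fit and 0 to 1 without single arrays. The block pairs the regions of 1 animal there; between mutants and controls same-numbered arrays share only a number.

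Signs turned for small differences. In ret mice Cd163 was 0.025 with the sex label, and Mrc1 was -0.64 with Gh as covariate and -0.52 with mutant 3 as the sole mutant. In the region difference Csf1r was 0.13 with averaged probe sets and C1qa 0.036 after renewed quantile normalization, and without single arrays the ranges were -0.20 to 0.10 for Csf1r, -0.52 to 0.33 for C1qa, -0.53 to 0.28 for C1qb, -0.67 to 0.33 for Aif1, -0.71 to 0.13 for Tyrobp and -0.061 to 0.73 for Mrc1. In wild type Cd163 was -0.016 after renewed quantile normalization and -0.25 to 0.24 without single arrays, and in R26P controls Tyrobp was -0.33 to 0.19 without single arrays.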

Other observations

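Between regions of R26P controls, all 13 genes raised in activated microglia had a higher mean in cerebellum than in cerebrum, with a median of 0.81 on the log2 scale beside 0.03 over all genes. The limma fit called none of them, but it did not pair the regions of each animal. In wild type 11 of the 13 had a higher mean in cerebellum, with a median of 0.17 beside -0.04 over all genes. The 24 other microglia genes went the other way in R26P controls, where 2 had a higher mean in cerebellum and the median was -0.58.

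Spi1, which encodes PU.1, read 5.44, 5.77, 6.51 and 6.33 in ret mutants against 5.69, 5.15, 5.27 and 4.58 in ret controls, a difference of 0.84 (limma, adjusted p = 0.0987). On R26P mutant number 4 it read 8.75 in cerebrum and 7.47 in cerebellum, the highest of each group, with the other mutants at 5.28 to 6.24 and 5.12 to 6.14.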
